A study of Sus scrofa with 2 samples.

Results

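Hyaluronan is a long sugar polymer of the extracellular matrix that is made at the cell surface, loaded with binding proteins outside the cell and cut down again. HAS2, a hyaluronan synthase of the plasma membrane, makes the polymer. TNFAIP6 (TSG-6), a secreted protein, passes heavy chains of inter-alpha-inhibitor onto it, and PTX3, a secreted pentraxin, helps to cross-link the loaded polymer into a matrix. CEMIP (KIAA1199) is needed by fibroblasts to take up and break down hyaluronan. In stromal cells of adipose tissue and skin these genes shape the soft matrix of wounds and scars. The question here was whether synthesis, binding and breakdown fall in the same cells.

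The 4 genes were taken by symbol from the 28155 genes named in the files, and HAS2 is listed there as SHAS2, a name that the RefSeq table pairs with Has2. The set was chosen by role but selected on an earlier analysis of the same files, in which CEMIP was among the genes lowest in cycling cells, so levels by cycle state and by library are given as descriptions. The cells are adipose-derived stem cells (ADSCs) of Bama miniature pigs, grown from chest fat for 3 generations in culture and frozen, and the series title names keloid prevention and functional subgroups. The labels give 1 group of 2 single-cell libraries, described as healthy, with no treatment, age or sex, and whether these stem from different pigs or culture dishes is not stated. The p-values below therefore rest on the disagreement between these libraries, which may be technical, and on a spread pooled over genes. After filtering, library 1 held 10559 cells with 209737159 UMIs (unique molecular identifiers, each counted once per captured molecule) and library 2 held 11984 cells with 245421850 UMIs. All 10 stromal markers reached 10 CPM (UMI counts scaled to a total of 1000000) in both libraries. The other marker lists summed to at most 26.8 CPM (mesothelial, library 1), and no macrophage, lymphocyte, fat cell, epithelial or bone marker reached 10 CPM. The libraries shared 46 cell barcodes.

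On the build Sscrofa11.1, RefSeq places CEMIP at chromosome 7, positions 49622534 to 49792547, and TNFAIP6 at chromosome 15, positions 862013 to 881352. PTX3 lies at chromosome 13, positions 97273594 to 97279570. HAS2 spans chromosome 4, positions 17583154 to 17613524, and the non-coding gene LOC106509979 (17583360 to 17589050) lies inside it. Whether the counting used strand is not given in the sources used here, so reads of HAS2 and LOC106509979 may not be fully separated.

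HAS2, the synthesis gene, was at 9.34 CPM (exact Poisson 95% interval 8.93 to 9.76, counting error only) in library 1 and 2.80 CPM (2.59 to 3.02) in library 2. Library 1 was thus 3.335-fold higher, with 1 sample on each side and no replicate check. TNFAIP6 was at 104 CPM (103 to 106) and 91.1 CPM (89.9 to 92.3), a 1.14-fold difference. PTX3 was at 89.3 CPM (88.1 to 90.6) and 72.5 CPM (71.5 to 73.6), a 1.23-fold difference. CEMIP went the other way, at 70.4 CPM (69.3 to 71.6) in library 1 and 168.4 CPM (166.8 to 170.1) in library 2, which was 2.39-fold higher. The synthesis gene was thus higher in the library with the lower breakdown gene, and both binding genes were closer to equal.

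As the background, 8042 genes had a mean of 10 CPM or more, of which 225 (2.8%) were 2-fold or more above in library 1 and 29 (0.361%) in library 2. Of the 4 genes, 3 reached that mean: CEMIP was one of the 29, and TNFAIP6 and PTX3 differed less than 2-fold. HAS2, with a mean of 6.07 CPM, was below the limit. HAS1, the second synthase, was at 16.1 CPM (15.6 to 16.7) in library 1 and 3.08 CPM (2.87 to 3.31) in library 2, which is 5.22-fold higher in library 1. HAS3 stayed at 0.243 and 0.354 CPM.

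CEMIP had the longest tail of cells with many UMIs of the 4 genes. For a comparison at equal depth, 5000 UMIs were drawn at random from each cell, which kept 9581 and 11598 cells and left out 978 and 386 shallower ones (thinning). CEMIP was then seen in 1390 cells (14.5%, exact binomial 95% interval 13.8 to 15.2) of library 1 and 1703 cells (14.7%, 14.0 to 15.3) of library 2. The share of cells with CEMIP thus hardly differed between libraries whose CEMIP level differed 2.39-fold. The difference lay in the cells with many UMIs: 217 cells (2.26%) of library 1 and 633 cells (5.46%) of library 2 held 5 or more. In single cells CEMIP reached 61 and 132 of the 5000 UMIs, and 1% of cells held 34.9% and 32.4% of its UMIs. HAS2, seen in few cells at all, had 35.6% and 77.3% of its UMIs in 1% of cells.

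PTX3 had a milder tail of the same kind. It was seen in 2352 cells (24.5%, 23.7 to 25.4) and 2058 cells (17.7%, 17.1 to 18.5), with at most 22 UMIs in a cell of either library. TNFAIP6 was seen in the most cells, 3438 (35.9%, 34.9 to 36.9) and 3775 (32.5%, 31.7 to 33.4), but at low counts of at most 6 and 7 UMIs. HAS2 was seen in 347 cells (3.62%, 3.26 to 4.02) of library 1 and 153 cells (1.32%, 1.12 to 1.54) of library 2. Most of these cells, 313 and 145, held exactly 1 HAS2 UMI. The variance of UMIs over cells divided by their mean (the Fano factor, 1 for pure counting noise) was 8.68 and 15.6 for CEMIP, 2.95 and 3.47 for PTX3, 1.30 and 1.35 for TNFAIP6 and 1.25 and 1.13 for HAS2. Without thinning the shares were higher: 26.6% and 22.5% of cells for CEMIP, 12.7% and 4.41% for HAS2, 67.6% and 65.0% for TNFAIP6 and 48.1% and 37.4% for PTX3. No group of cells here was known to lack these genes, so the share that free RNA alone gives was not measured.

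**Figure D1:**
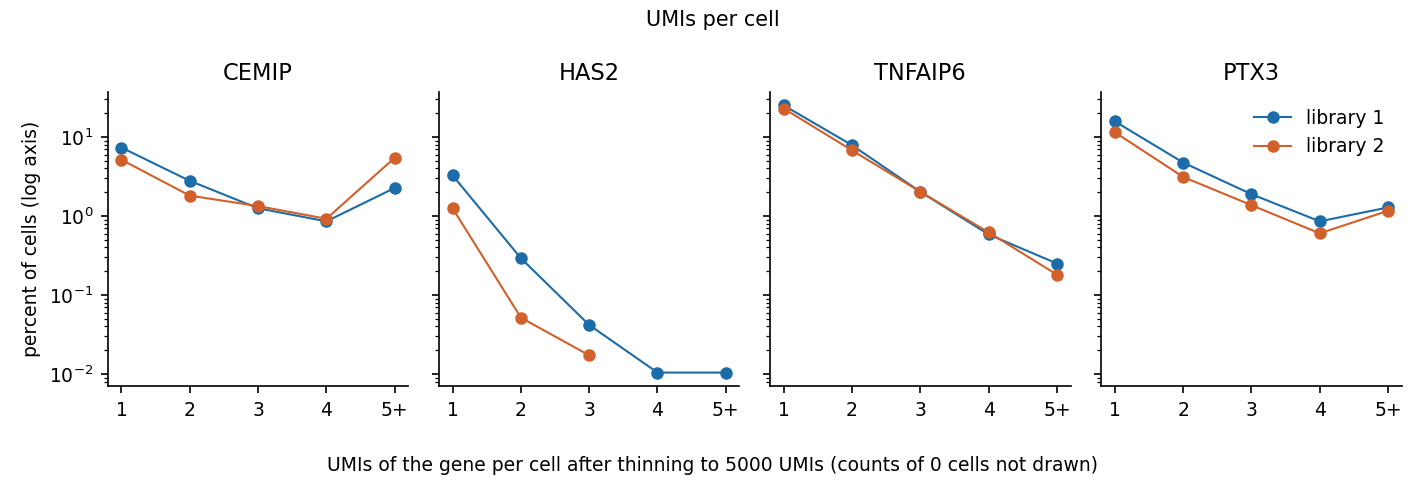
Percent of thinned cells (log axis) that held 1, 2, 3, 4 or 5 and more UMIs of each gene, per library, with 9581 cells in library 1 and 11598 in library 2. TNFAIP6 and HAS2 fall off steeply, whereas CEMIP turns up again at 5 or more UMIs, to 2.26% and 5.46% of cells. PTX3 turns up there less, to 1.28% and 1.16%. This last class pools all counts from 5 up.

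The 4 genes differed in how their level went with the cell cycle. Cells in which 3 or more of the 15 core cycle genes were seen were called cycling (39.8% and 39.7% of cells) and those with none non-cycling (19.8% and 21.4%). CEMIP was at 125.3 CPM in non-cycling and 26.4 CPM in cycling cells of library 1, and at 352 and 59.2 CPM in library 2. PTX3 was at 122.6 and 62.7 CPM in library 1 and at 108.8 and 47.5 CPM in library 2. The breakdown gene was thus 4.74-fold and 5.95-fold higher in non-cycling cells, and PTX3 1.96-fold and 2.29-fold.

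TNFAIP6 did not share that pattern, with 110.6 CPM in non-cycling and 85.6 CPM in cycling cells of library 1 but 85.1 and 87.6 CPM in library 2. HAS2 leaned to the cycling side, with 8.29 and 9.51 CPM in library 1 and 1.28 and 4.07 CPM in library 2. Within library 1 the HAS2 intervals of the non-cycling (7.40 to 9.26) and cycling cells (8.89 to 10.2) overlapped, and within library 2 (0.986 to 1.63 and 3.69 to 4.47) they did not.

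**Figure D2:**
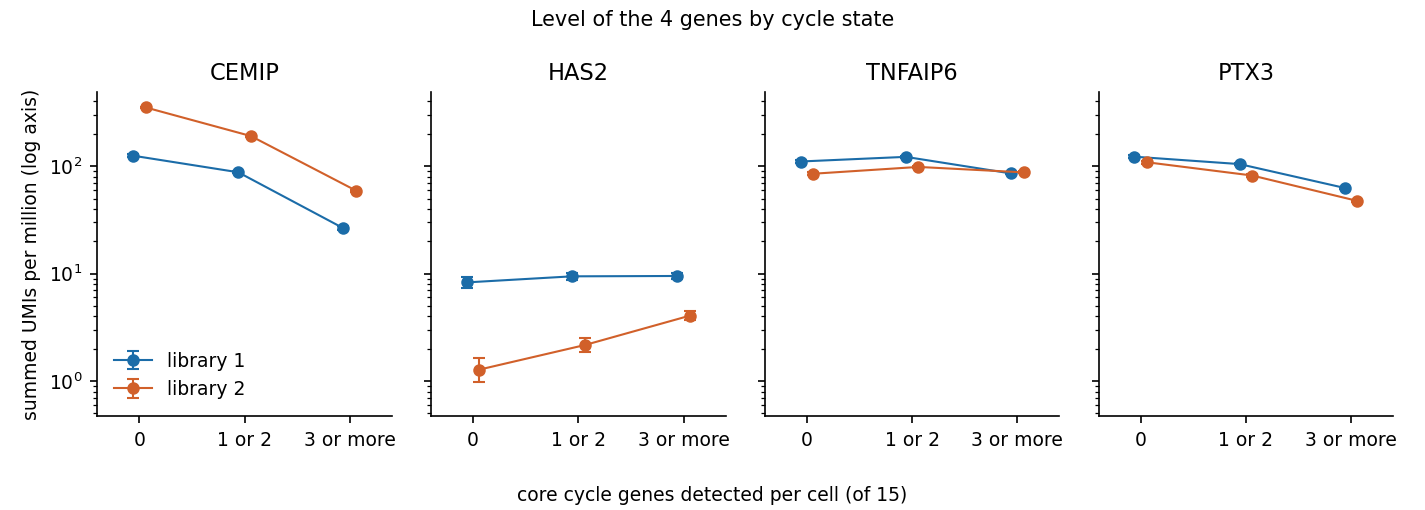
CPM (log axis) of each gene in cells with 0, 1 or 2, or at least 3 core cycle genes, per library, with exact Poisson 95% intervals. CEMIP fell from 125.3 to 26.4 CPM and from 352 to 59.2 CPM over these states, and HAS2 in library 2 went from 1.28 to 4.07 CPM.

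The cycle contrast over all genes gives the background for the rest of the hyaluronan genes. In it 1379 of 17027 genes were higher in cycling cells (8.1%) and 1603 lower (9.41%) by edgeR's quasi-likelihood test. Here and below, called means an adjusted p (Benjamini-Hochberg) under 0.05 together with a log2 change of 0.5 or more in size and one sign in the libraries. Of the 40 hyaluronan genes listed, 24 had a mean of at least 1 CPM, and 20 of these were not among the 4. Of the 20, 4 were higher and 4 lower. HMMR, a hyaluronan receptor that also sits on the spindle, is one of the 15 genes that define the classes and rose by construction. UAP1, which makes the sugar nucleotide UDP-N-acetylglucosamine, rose by 0.67 on the log2 scale, the receptor gene LAYN by 0.80 and the hyaluronidase gene HYAL2 by 0.56. GFPT2, which starts the hexosamine pathway, changed by -0.76, VCAN (versican, a hyaluronan-binding proteoglycan) by -0.62, the link protein gene HAPLN3 by -0.96 and CEMIP2 (TMEM2, a cell-surface hyaluronidase) by -0.65. Without the replicate block 374 genes passed in place of 2982.

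Cells with both CEMIP and PTX3 were more frequent than the product of the genes' shares. In library 1, 468 cells held both, against 341.2 by the shares, a ratio of 1.37 (1.27 to 1.48, from the exact binomial interval of the share of CEMIP cells with PTX3). In library 2, 508 cells held both against 302.2, a ratio of 1.68 (1.56 to 1.81). Of the 6 pairs this one had the highest ratio in both libraries. Within non-cycling cells its ratio was 1.31 (1.15 to 1.48) and 1.40 (1.24 to 1.57), and within cycling cells 1.21 (0.977 to 1.48) and 1.73 (1.43 to 2.06). Breakdown and one binding gene thus met in the same cells more often than their shares give, also among cells of one cycle state, except that the interval of the cycling cells of library 1 took in 1.

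Cells with both CEMIP and HAS2, the breakdown and the synthesis gene, were few. There were 40 in library 1 against 50.3 by the shares, a ratio of 0.795 (0.570 to 1.08), and 11 in library 2 against 22.5, a ratio of 0.490 (0.245 to 0.874). Library 2 lay below 1, and the interval of library 1 took in 1. In library 2 the interval also lay below 1 at 3000 UMIs per cell (0.382, 0.104 to 0.975), without thinning (0.773, 0.625 to 0.944) and without the highest doublet scores (0.396, 0.159 to 0.813). It took in 1 at 10000 UMIs per cell (0.888, 0.639 to 1.20) and in cells with 2000 genes or more (0.735, 0.392 to 1.25). Within one cycle state each of the 4 intervals of this pair took in 1, with 4 to 14 cells holding both, so no difference was detectable there at this depth. All 4 genes were seen together in 4 cells of library 1 (4.43 by the shares) and in 0 of 11598 cells of library 2 (1.30 by the shares), where a floor of 3 counts allows a share of up to 0.0259% at this depth. None of the 4 was seen in 3946 cells (41.2%) and 5452 cells (47.0%).

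The ratios of TNFAIP6 lay nearer to 1. With PTX3 its ratio was 1.03 (0.972 to 1.09) and 0.946 (0.880 to 1.02). With HAS2 the ratio was 1.17 (1.03 to 1.32) in library 1 and 1.08 (0.853 to 1.33) in library 2. At 10000 UMIs per cell it was 1.17 (1.10 to 1.24) and 1.18 (1.05 to 1.30), and unthinned 1.22 (1.19 to 1.25) and 1.20 (1.14 to 1.25). In library 2 the interval took in 1 at 3000 UMIs per cell (0.911, 0.551 to 1.37). It also did in cells with 2000 genes or more (0.868, 0.628 to 1.14) and without the highest doublet scores (1.00, 0.759 to 1.27). In library 1 the interval lay above 1 in each of these settings. With CEMIP the ratio of TNFAIP6 was 1.03 (0.960 to 1.10) in library 1 and 0.848 (0.783 to 0.915) in library 2, so the libraries disagreed over all cells. Within non-cycling cells the ratio of CEMIP and TNFAIP6 was below 1 in both libraries, at 0.853 (0.736 to 0.976) and 0.791 (0.677 to 0.915). HAS2 and PTX3 gave 0.916 (0.741 to 1.11) and 0.663 (0.401 to 1.01).

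**Figure D3:**
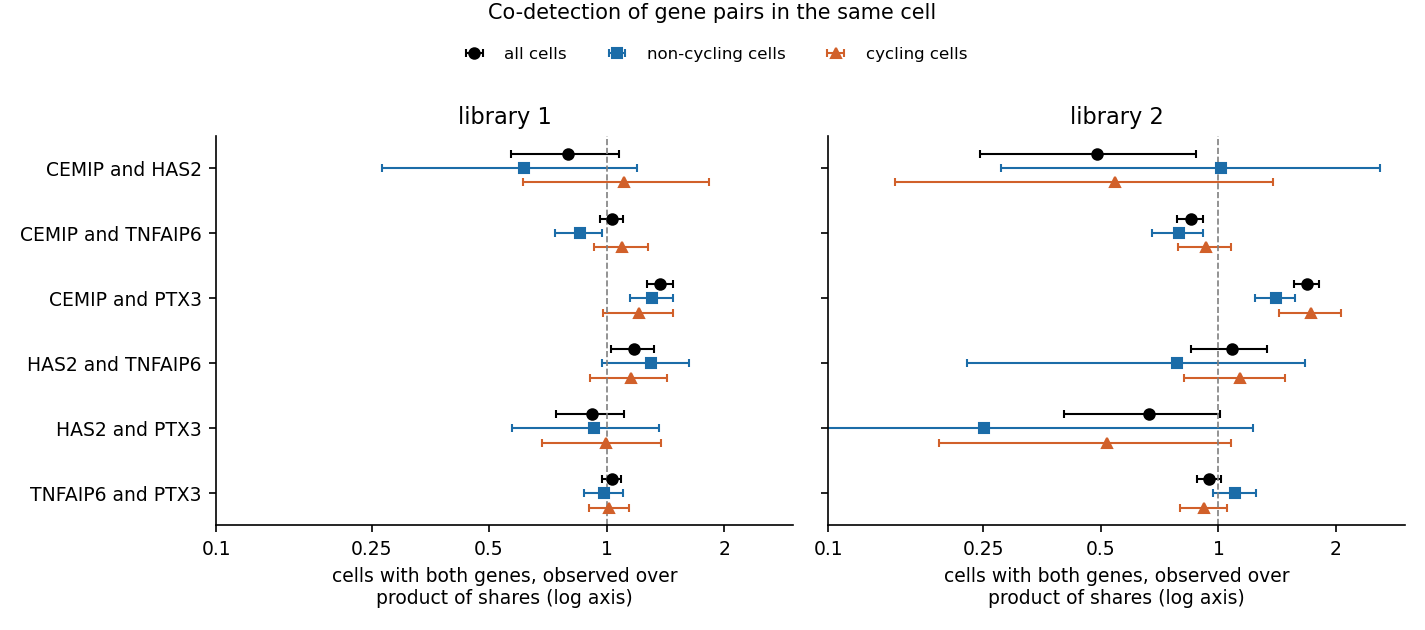
Number of thinned cells with both genes of a pair divided by the number the product of their shares gives (log axis), for all, non-cycling and cycling cells of each library, with intervals from the exact binomial interval of the share (1 is drawn cut at 0.1). CEMIP with PTX3 lay at 1.37 and 1.68 in all cells, and CEMIP with HAS2 at 0.795 and 0.490.

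The level of PTX3 went up over classes of CEMIP UMIs. In library 1 it was at 79.2 CPM in cells with 0 CEMIP UMIs, 131.9 with 1, 175.7 with 2 to 4 and 197.0 with 5 or more. In library 2 it was at 60.8, 109, 118.8 and 179.2 CPM. The order held from the other side: CEMIP was at 57.3, 78.5, 120.1 and 230.3 CPM over the same classes of PTX3 UMIs in library 1, and at 133.6, 238.1, 386 and 668 CPM in library 2. Over the CEMIP classes the share of cycling cells went from 42.6% to 32.4%, 16.6% and 7.83% in library 1 and from 42.6% to 33.6%, 23.5% and 13.0% in library 2.

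HAS2 was lowest in library 1 in the cells richest in CEMIP, at 9.56, 8.33, 7.62 and 2.62 CPM over the CEMIP classes. The last value rests on 9 UMIs (1.20 to 4.98 CPM). In library 2 HAS2 was at 3.01 CPM in cells without CEMIP and at 1.47, 1.76 and 1.83 CPM in the others, so the step lay between none and any CEMIP. TNFAIP6 was at 103.3, 110.8, 106.2 and 101.1 CPM in library 1, where the intervals of the first (101.8 to 104.8) and the last class (90.8 to 112.3) overlapped. In library 2 it was at 94.8, 71.9, 66.8 and 71.1 CPM, lower in each class with CEMIP.

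**Figure D4:**
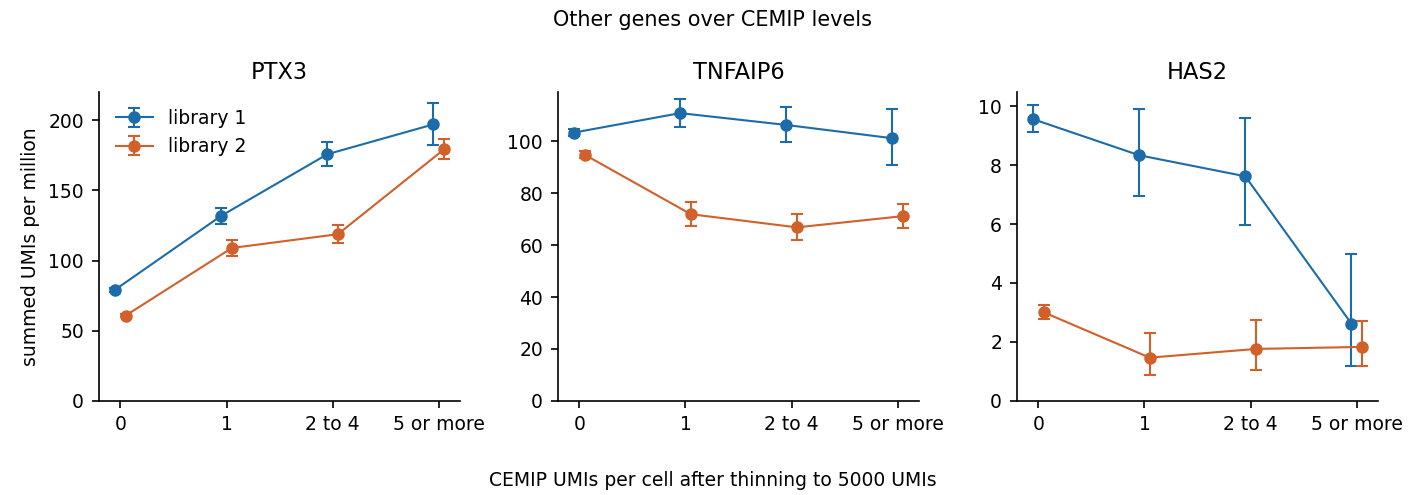
CPM of PTX3, TNFAIP6 and HAS2 in thinned cells with 0, 1, 2 to 4 or 5 and more CEMIP UMIs, per library, with exact Poisson 95% intervals. PTX3 climbed from 79.2 to 197.0 CPM and from 60.8 to 179.2 CPM, and HAS2 ended at 2.62 and 1.83 CPM.

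To test these pairs over libraries, cells with at least 1 UMI of a gene after thinning were set against cells with none. Their full counts were summed per library and class and fitted with edgeR, with the library as a replicate block and all genes adjusted together. Each class is a range of counts, not a cell type: of the cells with CEMIP 50.6% and 35.1% held exactly 1 UMI, the lowest count that enters, of those with TNFAIP6 70.1% and 70.5%, and of those with PTX3 64.2% and 64.7%. All 4 genes passed the filter on low counts. Each SE is the size of the log2 change divided by the square root of edgeR's F. It rests on 1 residual degree of freedom and a spread pooled over genes, not on the library values alone. The prior degrees of freedom were 16.5, 13.3 and 7.6 in the CEMIP, TNFAIP6 and PTX3 fits. In 3 of the 12 tests a gene was called. The tests reuse the same cells, so that PTX3 by CEMIP class and CEMIP by PTX3 class are not independent.

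PTX3 was higher in cells with CEMIP, at 154.7 against 79.2 CPM in library 1 and 137.4 against 60.8 CPM in library 2. Its log2 fold change was 1.11 ± 0.07 (SE, n = 2 libraries, adjusted p = 1.7e-08, edgeR), with 0.98 in library 1 and 1.23 in library 2. Across all genes of that fit 545 of 17968 were called higher (3.03%) and 349 lower (1.94%). It was called under 10 of 11 alternatives and lost without the replicate block (1.09, adjusted p = 1). Of the cells with CEMIP 23.2% and 23.1% were cycling, against 42.6% in both libraries of those without; within non-cycling cells the log2 change was 0.99 in library 1 and 0.82 in library 2, and within cycling cells 0.67 and 1.00. The difference between the cycle states was -0.07 ± 0.11 (adjusted p = 1, edgeR).

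CEMIP was lower in cells with HAS2, at 37.1 against 69.0 CPM in library 1 and 70.5 against 168.3 CPM in library 2. Its log2 fold change was -1.10 ± 0.09 (SE, n = 2 libraries, adjusted p = 9.5e-27, edgeR), with -0.91 in library 1 and -1.31 in library 2. The fit called 64 of 17778 genes higher (0.36%) and 65 lower (0.366%). The prior degrees of freedom of this fit were infinite, so the p-value rests on a spread pooled over genes. The high class held 347 and 153 cells, and a few cells carry much of the CEMIP count, as given above. In cycling cells the change was -0.47 (adjusted p = 0.0245, edgeR), below the 0.5 required, and without the block it was -1.20 (adjusted p = 1). Non-cycling cells with HAS2 were too few to fit (62 and 17). The share of cycling cells was 42.9% and 56.2% in cells with HAS2 and 39.6% and 39.5% in those without, and its part in the result was not tested beyond the cycling cells.

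CEMIP was higher in cells with PTX3, at 98.6 against 57.3 CPM and 312 against 133.6 CPM. The log2 fold change was 1.04 ± 0.12 (SE, n = 2 libraries, adjusted p = 0.0393, edgeR), with 0.79 in library 1 and 1.24 in library 2. The fit called 63 of 17842 genes higher (0.353%) and 39 lower (0.219%). The call of CEMIP held under 2 of 11 alternatives. Its log2 change was between 0.82 and 1.41 in each of the 11.

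HAS2 in cells with CEMIP stood at 7.40 against 9.56 CPM in library 1 and 1.69 against 3.01 CPM in library 2. Its log2 fold change of -0.50 ± 0.13 (adjusted p = 0.0242, edgeR) fell just short of 0.5 in size, and 3 of 11 alternatives called it. PTX3 in cells with HAS2 stood at 64.0 against 90.5 CPM and 56.6 against 72.8 CPM, a log2 change of -0.48 ± 0.09 (adjusted p = 5.7e-05, edgeR) that 2 of 9 alternatives called. HAS2 in cells with TNFAIP6 stood at 11.2 against 8.18 CPM and 3.02 against 2.70 CPM. That log2 change was 0.34 ± 0.08 (adjusted p = 0.0253, edgeR), and in non-cycling cells it was 0.75 (adjusted p = 0.00143, edgeR), which was called. Non-cycling cells of library 2 held only 64 HAS2 UMIs. There 4 cells held both genes, a co-detection ratio of 0.784 (0.227 to 1.66), against 1.30 (0.972 to 1.63) in library 1. The remaining 6 tests, 5 of which involve TNFAIP6, gave log2 changes between -0.23 and 0.10 with adjusted p of at least 0.201 (edgeR). In non-cycling cells CEMIP in cells with TNFAIP6 was at -0.40 (adjusted p = 9.3e-21), below the size required. In the fit of cells with TNFAIP6 15 of 17886 genes were higher (0.0839%) and 15 lower (0.0839%).

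The other hyaluronan genes were called about as often as genes in general. Of the 20 others at 1 CPM or more, CEMIP2 was called higher in cells with CEMIP (log2 0.52 ± 0.06, 43.8 against 29.8 CPM and 44.9 against 33.8 CPM) and HMMR lower (-1.01 ± 0.06), beside 3.03% and 1.94% of all genes. Without cluster 5, within non-cycling cells and within cycling cells no gene of the breakdown list was called, CEMIP2 included. HMMR is a core cycle gene, CEMIP2 was lower in cycling cells, and cells with CEMIP were less often cycling. Whether cycle state or the smaller classes bear on these calls was not tested. None of the 20 was called in the cells with HAS2, TNFAIP6 or PTX3, where 0.0839% to 0.366% of all genes were called in each direction, so nothing is read from these counts. The medians of the 20 were -0.10, -0.02, 0.06 and 0.04 on the log2 scale in the cells with CEMIP, HAS2, TNFAIP6 and PTX3, beside 0.02, -0.01, 0.00 and 0.00 over all genes tested.

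Within synthesis, HAS1 in cells with TNFAIP6 stood at 19.1 against 14.3 CPM and 4.12 against 2.59 CPM (log2 0.48 ± 0.07, adjusted p = 0.0009, edgeR), just under the size required. GFPT2 in the same cells gave 0.32 ± 0.04 (adjusted p = 0.00043, edgeR). With DESeq2 1 of the 10 precursor and synthesis genes was called higher in cells with TNFAIP6, beside 3 of 17886 genes. Within non-cycling cells 2 of 9 were called higher, HAS2 among them, beside 22 of 14298 genes, and within cycling cells 0 of 10. HAS1 in cells with CEMIP stood at 13.3 against 16.5 CPM and 1.28 against 3.41 CPM (log2 -0.57 ± 0.20, adjusted p = 0.237, edgeR). Within non-cycling cells 2 of 9 precursor and synthesis genes were called lower in cells with CEMIP and 0 higher (median log2 -0.35). Of all 14510 genes tested there, 155 were lower and 228 higher. Over all cells and within cycling cells 0 of 10 were called in either direction. CD44, the main hyaluronan receptor, was at 201.2 and 171.7 CPM over all cells and was called in none of the 4 fits. GUSB, a lysosomal enzyme that takes part in the last steps of breakdown, gave log2 values of 0.15 in cells with CEMIP, 0.06 in cells with TNFAIP6 and 0.04 in cells with PTX3, and was called in none. Among the proteins that TNFAIP6 acts with, the 5 heavy-chain genes ITIH1 to ITIH5 and AMBP each had a mean below 1 CPM, and 16 of the 40 hyaluronan genes did.

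**Figure D5:**
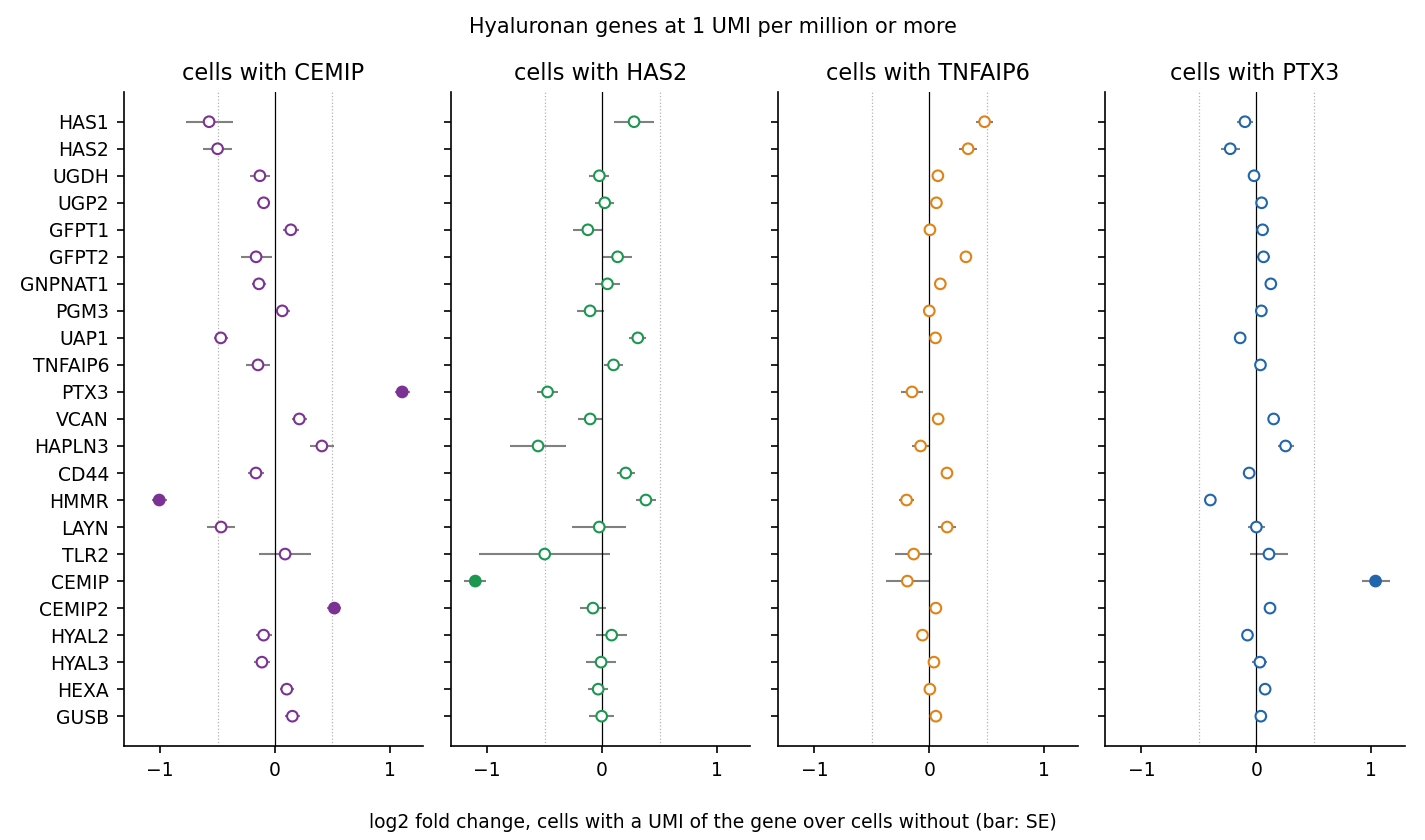
Log2 fold change with SE of hyaluronan genes at a mean of 1 CPM or more (all but 1), in cells with at least 1 UMI of CEMIP, HAS2, TNFAIP6 or PTX3 over cells without. Filled points were called; they are PTX3 (1.11), HMMR (-1.01) and CEMIP2 (0.52) in the first panel, CEMIP in the second (-1.10) and the fourth (1.04), and none in the third.

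The cells with CEMIP were rich in contractile genes. Of the 16 listed contractile and TGF-beta genes 12 were called higher and 0 lower, beside 3.03% and 1.94% of all genes, with a median log2 of 1.14 beside 0.02 over all genes. ACTA2, the smooth muscle actin of myofibroblasts, stood at 208 against 48.98 CPM in library 1 and 370 against 70.7 CPM in library 2 (log2 2.28 ± 0.08). TAGLN, transgelin, rose by 1.69 ± 0.07 and ACTG2, another smooth muscle actin, by 2.26 ± 0.31. Within non-cycling cells 9 of the 16 were called higher and 1 lower, beside 228 and 155 of all 14510 genes tested there. Within cycling cells 10 and 0 were called, beside 238 and 68 of 16087 genes. Without the block 0 genes of any list passed in the 4 fits (957 genes of the CEMIP fit had an unadjusted p under 0.05 there).

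Of 19 inflammatory genes 9 were higher and 0 lower in the cells with CEMIP, beside the same 3.03% and 1.94%, led by the chemokine gene CCL20 (1.34 ± 0.13), the cytokine gene IL1A (1.32 ± 0.08) and CXCL14 (0.88 ± 0.08). Within non-cycling cells 2 were called and within cycling cells 5, all higher, beside 228 of 14510 and 238 of 16087 genes called higher. Of 17 collagen and matrix genes 3 were higher and 1 lower: the cross-linking enzyme LOXL2 rose by 1.17 ± 0.07 and COL12A1 by 0.65 ± 0.06, and POSTN, periostin, changed by -0.69 ± 0.05. Of the 15 core cycle genes 14 were lower over all cells. CEMIP was known to be low in cycling cells when the set was selected, so this count is a description. Within non-cycling cells 2 of 14 tested were lower, beside 155 of 14510 genes, and within cycling cells 0, beside 68 of 16087. KRT19, a keratin on the mesothelial list, changed by -1.27 ± 0.15, at 8.32 against 16.2 CPM and 4.44 against 14.3 CPM. The mesothelial list summed to 20.4 against 27.7 CPM and 8.96 against 19.5 CPM. In the other direction 1 gene each of the bone and cartilage, mural and fat cell lists was called higher, of 2, 5 and 3 tested. The bone gene was SP7, a transcription factor of bone cells (log2 1.00 ± 0.19, 2.09 against 0.962 CPM and 2.41 against 1.34 CPM). The fat cell list summed to 1.24 against 0.822 CPM and 2.65 against 0.483 CPM, and the mural list to 16.7 against 16.1 CPM and 16.5 against 18.7 CPM. The part of these lists in the result was not tested. Of genes at 10 CPM or more, NEDD9, LCN2 and CCDC112 were also among the 5 highest (1.48 to 1.51), and SST, ALDH1A1, PRR11 and ASPM among the 5 lowest (-2.07 to -1.08).

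In the cells with HAS2 the contractile genes that were called were lower. ACTA2 changed by -1.08 ± 0.10, TAGLN by -0.64 ± 0.08 and LOXL2, of the matrix list, by -1.04 ± 0.18. ACTG2 changed by -1.90 ± 0.40, with -0.92 in library 1 and -4.26 in library 2. It stood at only 1.12 against 2.12 CPM and 0.302 against 5.90 CPM. The cells with HAS2 in library 2 held 3306295 UMIs in all, so the ACTG2 value there rests on very few UMIs. Of the 16 contractile genes 3 were lower and 0 higher, beside 0.366% and 0.36% of all genes. Of the 19 inflammatory genes 4 were lower and 0 higher. CCL20 was among them (-1.29 ± 0.34), also at low levels of 2.12 against 5.55 CPM and 0.907 against 1.38 CPM. Of the 15 core cycle genes 4 were higher, led by CENPF (0.56 ± 0.08) and TOP2A (0.56 ± 0.08). AREG, a growth factor of the EGF family, was the highest at 0.86 ± 0.11, at 66.4 against 46.7 CPM and 56.3 against 20.5 CPM. SST, ESM1, PLD5 and VGF followed (0.62 to 0.74), each with the larger change in library 2. SST changed by 0.16 in library 1 and 1.41 in library 2, and ESM1 by 0.34 and 1.29. PLD5 changed by 0.61 and 0.85 and VGF by 0.40 and 0.91. In cycling cells alone 1 contractile gene was lower, and no inflammatory or core cycle gene passed. Of all 16087 genes tested there, 23 were higher and 17 lower.

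In the cells with PTX3, ALDH1A3, an enzyme that makes retinoic acid, was the highest at 1.16 ± 0.07, and LCN2 (0.93 ± 0.12), CCDC112 (0.71 ± 0.07) and ACTA2 (0.70 ± 0.10) were among the 5 highest. Of the 16 contractile genes 2 were higher, beside 0.353% of all genes, and of the 15 core cycle genes 5 were lower, beside 0.219%. In the cells with TNFAIP6 no called gene had a symbol and a mean of 10 CPM or more. CCL20, at 6.67 against 4.70 CPM and 1.83 against 1.16 CPM, was called higher (0.54 ± 0.09), as 1 of 19 inflammatory genes, and ACTG2 lower (-0.998 ± 0.09).

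The genes most like each of the 4 over single cells were ranked by Pearson's r of log-scaled UMIs in the thinned cells, taking the lower of the libraries, among 7238 genes (7239 for HAS2). These correlations are descriptions, and the cells share a library and a depth. CEMIP was most like TPM1 (r = 0.28 and 0.30), CALD1 (0.27 and 0.29) and TAGLN (0.26 and 0.31), with PLXDC2 and ACTA2 next. PTX3 was most like ADM (0.14 and 0.13) and SFRP2 (0.12 and 0.15), and CEMIP came in place 3 (0.11 and 0.15), with 0.0276% of genes above it. Seen from CEMIP, PTX3 was in place 48. TNFAIP6 was most like the immediate early genes NR4A3 (0.09 and 0.09) and NR4A2 (0.09 and 0.07), and ZNF521, ATF3 and POSTN followed. Within non-cycling cells its first 5 were NR4A3, POSTN, CAV1, CD44 and IER3. In the class fit of TNFAIP6 0 of 12 listed immediate early genes were called, beside 0.0839% of all genes in each direction. HAS2 had no r above 0.05, led by HMGA1 (0.04 and 0.04). Among the genes ranked by likeness to HAS2, CEMIP came in place 7069 (-0.025 and -0.022) and PTX3 in place 6709 (-0.018 and -0.015). TNFAIP6 came in place 810 (0.022 and 0.007), so these places rest on r values near 0. Within non-cycling cells HAS2 was led by SLC6A17 (0.07 and 0.06), and its first 5 held none of its first 5 over all cells.

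In clusters made without the listed genes, CEMIP and PTX3 were high together in cluster 2, and TNFAIP6 was high in cluster 1. The clusters are called by number, with the genes that lead them. Cluster 2 (28.0% and 33.4% of cells, led by ASPN, ALDH1A3 and LCN2, 4.97% and 5.53% cycling) had PTX3 at 144.1 and 123.4 CPM and CEMIP at 153.1 and 381 CPM. Cluster 1 (33.7% and 29.4% of cells, led by ALDH1A1, IGFBP5 and SELENBP1) had TNFAIP6 at 131.7 and 119.4 CPM but CEMIP at 34.1 and 63.7 CPM. In the cycling clusters 3 and 4 CEMIP stood between 19.5 and 58.8 CPM. HAS2 was highest in cluster 1 (11.8 CPM) and cluster 3 (11.3 CPM) in library 1, and in cluster 3 (5.35 CPM) in library 2.

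Cluster 5 stood apart by depth and stays unnamed. It held 419 and 120 cells with a median of 5632 and 3632 UMIs, against 19845 and 19652 over all cells, and a median mitochondrial share of 0.806% and 2.83%. CEMIP was its first leading gene, at 582 CPM (555 to 610) and 1753 CPM (1645 to 1866), whereas PTX3 was at 77.7 and 48.1 CPM. TNFAIP6 was also at its highest of the 5 clusters there, at 144.8 and 204.9 CPM. HAS2 was at 11.2 CPM in library 1 and had 0 UMIs in library 2, where a floor of 3 counts allows up to 5.35 CPM. Leaving out cluster 5, an alternative chosen after seeing the data, kept PTX3 in the cells with CEMIP (log2 1.12, adjusted p = 1.9e-08, edgeR) and CEMIP in the cells with HAS2 (-1.05, adjusted p = 1.6e-24) as calls. CEMIP in the cells with PTX3 was then no longer called (1.04, adjusted p = 0.103). Cells too shallow for thinning had not entered the main class fits. Of cluster 5, 226 of 419 cells in library 1 and 40 of 120 in library 2 had entered. Leaving out the cluster thus removed only these cells. The shares of thinned cells with CEMIP given above also lack the shallower cells of this cluster.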

How the data were processed

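Single-cell 3' libraries (Chromium v3.1, polyadenylated RNA) were deposited by the authors as raw UMI counts, whole numbers for each gene in each barcode. Per the file headers the counting used Cell Ranger 7.0.0, and the submitters' processing notes name the build Sscrofa11.1. Which annotation was used is not given in the sources used here. All members, gene lists and tests were chosen with earlier results of these data known.

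All barcodes with 1000 genes or more were kept, since a limit of 15% mitochondrial UMIs left out 0 further ones. Scrublet (scanpy 1.11.5) marked 0 and 750 cells, so it did not work in library 1, and no doublets were removed. Classes were set after thinning to 5000 UMIs, and each class needed 50 cells in each library. Counts were summed per library and class and tested with edgeR 4.0.16 (quasi-likelihood, TMM, filterByExpr, robust, library as block; 1 residual degree of freedom). The same libraries supply both classes, which pairs them. DESeq2 1.42.0 was an alternative. CPM intervals are exact Poisson, shares exact binomial (95%), and both cover counting error only. On data simulated for the CEMIP fit (17878 genes) 94% of log2 changes of 0.75 and 100% of 1.5 were recovered. The simulation used a single pooled profile without library differences and the same dispersion for every gene. It changed only well-counted genes, so the recovery does not give the power for the real libraries or for low genes. Clusters used 2000 variable genes, 30 components, 15 neighbours and Leiden resolution 0.4, without the listed genes. Genes were named by rule: all 4 genes, hyaluronan genes at 1 CPM or more, the 5 nearest in likeness, the 5 highest and lowest calls at 10 CPM or more per fit, and up to 3 calls per list. Sequences of the genes were not used here. The values of 1 listed hyaluronan gene are not reported here.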

Additional observations from a re-analysis of the deposited data

Results flagged for a closer look

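The barcodes left out of the cells, 1692 in library 1 and 972 in library 2, each with fewer than 1000 genes, held UMIs of CEMIP, TNFAIP6 and PTX3, and in library 1 of HAS2, above the limit that a count of 0 allows. In library 1 CEMIP was at 102.8 CPM there, TNFAIP6 at 115 CPM, PTX3 at 136.3 CPM and HAS2 at 6.143 CPM. In library 2 CEMIP was at 382.1 CPM, TNFAIP6 at 111.7 CPM and PTX3 at 93.85 CPM, and HAS2, with 2 UMIs, was under that limit. CEMIP, TNFAIP6 and PTX3 were above their levels in the kept cells in both libraries (70.4 and 168.4 CPM, 104 and 91.1 CPM, 89.3 and 72.5 CPM). For TNFAIP6 the intervals in the barcodes left out (99.9 to 131.9 and 90.9 to 135.9) took in the levels of the kept cells. These barcodes hold 1790746 and 895078 UMIs in all, and they enter no test.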

How the results depend on the processing

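Without the replicate block 0 genes were called in each of the 4 class fits and 0 of the 12 member pairs (957, 205, 43 and 170 genes had an unadjusted p under 0.05), and 374 genes in the cycle contrast. PTX3 by CEMIP was then 1.094, CEMIP by HAS2 -1.199 and CEMIP by PTX3 1.119. The 894 calls by CEMIP became 557 with DESeq2, 1400 from 2 UMIs, 383 in non-cycling and 306 in cycling cells. The 129 by HAS2 became 31 with DESeq2, 80 at 3000 UMIs and 40 in cycling cells. The 30 by TNFAIP6 became 4 with DESeq2, 77 without the filter on low counts, 139 with 1 UMI more, 68 at 10000 UMIs and 11 in cycling cells. The 102 by PTX3 became 53 with DESeq2, 163 without the filter, 402 with 1 UMI more, 160 at 3000 UMIs, 157 without the highest doublet scores and 58 in cycling cells, where 1 pair was called and CEMIP by HAS2 was -0.473. Calls of HAS2 by CEMIP appeared without the filter (-0.5384), with 1 UMI more (-0.6279) and at 2000 genes (-0.5441), of PTX3 by HAS2 at 3000 UMIs (-0.719) and 2000 genes (-0.5931), of HAS2 by TNFAIP6 in non-cycling cells (0.7543) and of HAS2 by PTX3 with 1 UMI more (-0.5094). CEMIP by PTX3 was no longer called without the filter (1.022), with 1 UMI more (1.405), at 3000 (1.134) and 10000 UMIs (1.058), without the highest doublet scores (1.126), at 2000 genes (0.9851), in cycling cells (0.8242) and without cluster 5 (1.041). Uncalled values near 0 turned sign: CEMIP by TNFAIP6 in cycling cells (0.03486), PTX3 by TNFAIP6 without the highest doublet scores (0.001128) and TNFAIP6 by PTX3 with 1 UMI more (-0.02278), at 10000 UMIs (-0.01902) and at 2000 genes (-0.03148). In single libraries, with no test, HAS2 by PTX3 was -0.1623 in library 1 and -0.3983 in library 2. The library ratio of CEMIP (log2 -1.258) was -1.285 at 2000 genes, -1.218 without the highest doublet scores and -1.389 without cluster 5, and that of PTX3 0.2559 without the highest doublet scores. The causes were not tested. With depth, the ratio of CEMIP with PTX3 went from 1.492 and 1.841 at 3000 UMIs to 1.18 and 1.336 unthinned. HAS2 could not be fitted in non-cycling cells, with 1 UMI more or by cycle state (under 50 cells), and the low class without any UMI equals the class used. The interaction with cycle state called 0 genes in the other 3 fits by edgeR (682, 523 and 510 had an unadjusted p under 0.05), and leaving out a library leaves no test.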
